A study of Mus musculus with 44 samples.

Results

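The α-globin flanks are the parts of mouse chromosome 11 that lie from 110 kb to 1 Mb on either side of the centre of the α-globin locus. Their members are the DpnII restriction fragments with a midpoint at chr11:31190000-32079999, called the lower flank, or at chr11:32300001-33190000, called the higher flank, in the mm9 build. They were chosen by position alone, without use of any contact value. The α-globin table of the formaldehyde series listed 593979 fragments, of which 100723 lay on chromosome 11 and 3683 in the flanks, 1869 in the lower and 1814 in the higher flank. The low-input table listed 3229 flank fragments among 210027, of which 2036 held an interaction, and the cell-number table listed 1680 among 40575. The 3 tables together held 3806 flank fragments, 1938 in the lower flank with a median length of 309 bp and 1868 in the higher flank with a median length of 336 bp. Each flank is 890 kb long and was divided into 45 windows of 20 kb, the outermost of which is 10 kb wide, so that 90 windows were described.

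Capture-C counts how often a chosen promoter, the viewpoint, was ligated to every other restriction fragment after the chromatin was cross-linked, digested and religated. Contact falls with genomic distance because the chromatin fibre is flexible and neighbouring segments meet more often than remote ones, and it is raised inside self-interacting domains, whose borders often carry binding sites of the insulator protein CTCF. In erythroid cells the duplicated α-globin genes Hba-a1 and Hba-a2, which encode the α-chains of adult haemoglobin, contact a cluster of enhancers in and around the introns of Nprl3. That cluster lies on the lower-coordinate side and closer to the genes than the flanks begin, so the flanks hold the chromatin beyond it.

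The viewpoint is a pair of promoters whose contacts cannot be told apart by sequence, and the 250 bases before the start of each gene (RefSeq, GRCm38.p6, plus strand) are shown because they explain why every value given here is a sum over both. The sequences share a run of 247 bases. Capitals mark the bases at the ends that are outside this run.
Hba-a1: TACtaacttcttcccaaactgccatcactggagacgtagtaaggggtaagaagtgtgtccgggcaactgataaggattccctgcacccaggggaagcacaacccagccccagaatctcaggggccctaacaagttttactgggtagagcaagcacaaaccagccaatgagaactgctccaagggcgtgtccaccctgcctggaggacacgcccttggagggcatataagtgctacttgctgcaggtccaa
Hba-a2: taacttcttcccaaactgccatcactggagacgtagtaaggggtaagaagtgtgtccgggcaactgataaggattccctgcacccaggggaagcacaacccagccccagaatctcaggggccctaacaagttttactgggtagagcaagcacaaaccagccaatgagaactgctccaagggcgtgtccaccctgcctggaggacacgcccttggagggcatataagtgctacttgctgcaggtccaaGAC
Neither stretch held GATC, the sequence cut by DpnII, which reads the same on both strands and was found in 41.9% of the 32851 promoter windows of this length. No genome of the mm9 build was used here, so the sequences of the flank fragments are not shown and no gene was placed in a window. By gene order alone in GRCm38.p6, the protein-coding neighbours going outward on the lower-coordinate side of the α-globin cluster were Hba-x, Nprl3, Mpg, Rhbdf1, Snrnp25, Il9r, Nsg2, 4930524B15Rik, Cpeb4, Bod1, Stc2 and Chac2. On the higher-coordinate side they were Hbq1a, Sh3pxd2b, Ubtd2, Efcab9, Stk10, Fbxw11, Smim23, Fgf18, Npm1, Tlx3, Ranbp17 and Gabrp.

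All 44 libraries came from Ter-119+ erythroid cells of female C57BL/6 mice whose spleens were enriched in red cell precursors by phenylhydrazine, a compound that destroys circulating red cells. In the formaldehyde series, aliquots of cells were fixed with 0.5%, 1%, 2%, 3%, 4% or 5% formaldehyde or left unfixed (0%), with 2 technical replicates of each, and the unfixed cells were in addition homogenised in water without a centrifugation step. In the low-input series, cells were fixed with 2% formaldehyde and 200, 100 or 50 ng of a 3C library, the religated DNA, entered either LI-Capture-C, which breaks DNA by sonication and ligates adaptors, or Tag-Capture-C, in which a transposase does both, with 3 libraries for each of the 6 combinations. In the cell-number series the whole LI-Capture-C procedure was run on 10000, 20000, 50000 or 100000 cells fixed with 2% formaldehyde, with 3 libraries each. The replicates of the formaldehyde series were technical. The 3 libraries of each low-input group are described by the study both as aliquots of a 3C library and, in the note to a table, as biological replicates, and those of the cell-number series are not described further, so p-values measure the spread between libraries, which may be technical. Nothing measured here reports on gene expression, so the cell type could not be checked against marker genes.

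Depth differed between the experiments. The libraries held 6480 to 106213 chromosome 11 interactions in the formaldehyde series, 3314 to 21774 in the low-input series and 1702 to 35417 in the cell-number series, of which 127 to 11171, 250 to 1844 and 164 to 3217 lay in the flanks. The 95% Wilson interval of the share of interactions in the flanks reached at most 0.398 percentage points to either side in the formaldehyde series, 0.958 in the low-input series and 1.40 in the cell-number series, and covers counting error only. Interactions that share a fragment were not independent, so these intervals are too narrow. In 15 of the 18 low-input libraries and 5 of the 12 cell-number libraries more flank fragments held 2 interactions than 1, against 0 of the 14 formaldehyde libraries. The share of occupied fragments with an even count had a median of 59.7% in the low-input series, 44.3% in the cell-number series and 40.4% in the formaldehyde series. What gave the even counts was not tested. The 2 libraries without formaldehyde stood apart, with 127 and 142 flank interactions, and results that rest on them are given with and without them unless stated.

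The flanks held more contact than their length alone would give. They cover 1.498% of the listed span of chromosome 11, and over the 42 libraries other than the unfixed they held 8.94% ± 1.44 (SD, n = 42) of its interactions, with a lowest value of 7.12% and a highest of 13.6%. Per kb this was 5.97 ± 0.961 times the chromosome mean, compared with 278 ± 39.3 times for the region within 110 kb of the centre. The 2 unfixed libraries held 1.73% and 2.19% of their chromosome 11 interactions in the flanks. That is 1.15 and 1.46 times the chromosome mean, so without formaldehyde the flanks were close to the rest of the chromosome and the ranges of unfixed and fixed libraries did not overlap.

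The share of chromosome 11 contact in the flanks was highest at low formaldehyde. It was 12.6% and 11.4% in the 2 libraries of 0.5%, 13.6% and 11.2% at 1%, and 10.5% and 9.38% at 2%. At 3% the libraries gave 7.95% and 7.20%, at 4% 7.71% and 7.13%, and at 5% 7.25% and 7.18%. All 6 libraries of 3% to 5% formaldehyde lay below all 6 libraries of 0.5% to 2%, and the library names in the descriptions of these sets differ in form, so concentration and a possible batch cannot be told apart between them. Over the same concentrations the share of contact within 110 kb of the centre went from 34.5% ± 1.87 (SD, n = 2) at 0.5% to 65.6% ± 0.689 at 5%, against 2.66% ± 1.38 without formaldehyde. Over the means of all 7 concentrations the flank share had no linear trend that passed the test, at -0.134 percentage points per percent formaldehyde (exact two-sided permutation test, p = 0.886, adjusted p = 0.965 over 12 tests of flank measures). Without the unfixed concentration it fell by 1.27 percentage points per percent over 6 concentrations, which did not pass the adjustment (exact permutation test, p = 0.0153, adjusted p = 0.171). Over all 7 concentrations, the unfixed included, 2 alternative trends were upward, and neither passed the test after adjustment. They were 1.37 percentage points per percent when each fragment was counted once per library, and 0.663 as a share of all interactions. That share was 0.11% at 0% formaldehyde, 3.51% at 0.5%, 6.56% at 2% and 5.37% at 5%. Both trends are given only with the unfixed libraries.

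Library protocol and input were not accompanied by a detectable change of the flank share. With LI-Capture-C it was 8.62%, 8.83% and 8.47% at 200 ng, 8.94%, 8.14% and 8.49% at 100 ng, and 7.87%, 8.63% and 8.66% at 50 ng. With Tag-Capture-C it was 9.15%, 8.63% and 8.95% at 200 ng, 8.53%, 8.76% and 8.91% at 100 ng, and 7.12%, 8.27% and 9.39% at 50 ng. The groups overlapped, and the widest spread was that of Tag-Capture-C at 50 ng (SD 1.14, n = 3). Tag-Capture-C differed from LI-Capture-C by 0.117 percentage points (exact two-sided permutation test within inputs, p = 0.660, adjusted p = 0.887). The share went up by 0.227 percentage points per doubling of input, which did not pass the test (permutation test, p = 0.134, adjusted p = 0.806). When the share was taken of interactions within 1 Mb of the centre, it went up by 0.690 percentage points per doubling of input (permutation test, adjusted p = 0.0262). Whether the difference between protocols depended on input was asked in 9 tests over the flank share, the flank ratio and the fall with distance, of which none passed (exact permutation tests, smallest p = 0.03, smallest adjusted p = 0.18).

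With 10000 cells the flank share was 7.99%, 7.58% and 9.64%, with 20000 cells 9.79%, 11.9% and 8.59%, with 50000 cells 8.89%, 9.74% and 8.45%, and with 100000 cells 8.38%, 9.08% and 8.03%. The single library at 11.9% was the highest of the series, and its 95% Wilson interval from 11.1% to 12.6% did not reach the other 11 values. This interval covers counting error only and is too narrow, and the errors of the other values are not in it. The slope was -0.0837 percentage points per doubling of cell number (permutation test, p = 0.786, adjusted p = 0.943). The columns of this series carry letters that recur at several cell numbers and that the labels do not explain. With the letter as a term the slope was -0.284 (exact permutation test within letters, p = 0.194, adjusted p = 0.778).

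The lower flank held more contact than the higher flank in 44 of 44 libraries. The ratio of lower to higher was 2.38 ± 0.330 (SD, n = 42) without the unfixed libraries, from 1.59 in a library of 10000 cells to 3.21 in a Tag-Capture-C library of 200 ng. In the unfixed libraries it was 1.82 and 1.15. The log2 ratio of the higher over the lower flank moved by -0.10 per percent formaldehyde over the 7 concentration means, from -0.53 ± 0.47 (SD, n = 2) at 0% and -0.94 ± 0.08 at 0.5% to -1.24 ± 0.08 at 5%, which did not pass the adjustment (exact two-sided permutation test, p = 0.0286, adjusted p = 0.343). Without the unfixed concentration it moved by -0.05 per percent (exact permutation test, p = 0.0194, adjusted p = 0.233). By protocol it differed by -0.0043 (exact permutation test, adjusted p = 0.965), by doubling of input it moved by 0.025 (permutation test, adjusted p = 0.887) and by doubling of cell number by -0.032 (permutation test, adjusted p = 0.887).

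**Figure D1:**
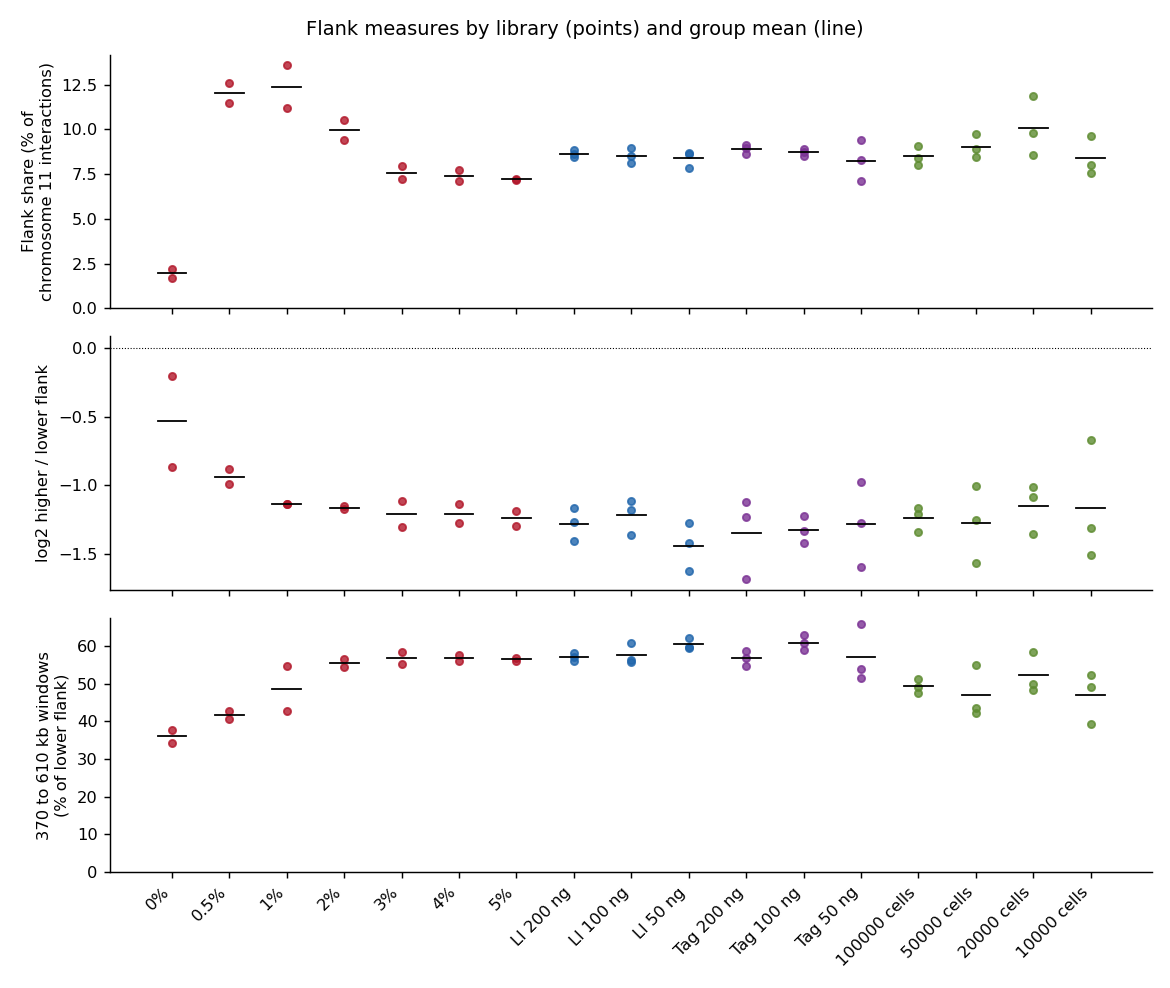
Flank share in percent of chromosome 11 interactions (top), log2 ratio of the higher over the lower flank (middle) and percent of lower-flank interactions in the windows from 370 to 610 kb (bottom), by group. Points are libraries and horizontal lines group means. The unfixed libraries lie below all fixed ones in the top panel, at 1.73% and 2.19%, and in the bottom panel, while in the middle panel 1 of them lies within the range of the fixed libraries. Every log2 ratio is below 0.

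Contact did not fall smoothly on the lower flank. Scaled to 100000 chromosome 11 interactions per library and averaged over the 12 fixed libraries of the formaldehyde series, the window at 110 to 130 kb held 512 interactions and that at 230 to 250 kb held 84.7. Contact then rose again to 442 interactions at 450 to 470 kb (chr11:31720000-31739999) before it fell to 39.2 at 690 to 710 kb. The low-input series gave 428, 49.0, 488 and 19.3 in the same 4 windows, and the cell-number series 529, 105, 420 and 36.0. The fall, the rise and the second fall were therefore present in the mean profile of each experiment. An even spread over the chromosome would give each window 16.8 interactions.

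The higher flank held less contact in its inner windows and a smaller rise. The window at 110 to 130 kb held 196 interactions per 100000 in the fixed libraries of the formaldehyde series, 144 in the low-input series and 255 in the cell-number series. Contact was 69.0, 47.7 and 80.1 at 250 to 270 kb and 195, 236 and 169 at 350 to 370 kb (chr11:32540001-32560000). It was 69.6, 32.7 and 40.2 at 450 to 470 kb. Beyond 510 kb the window at 870 to 890 kb (chr11:33060001-33080000) held the most in the formaldehyde and low-input series, with 73.9 and 54.1, but not in the cell-number series, where it held 35.1.

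**Figure D2:**
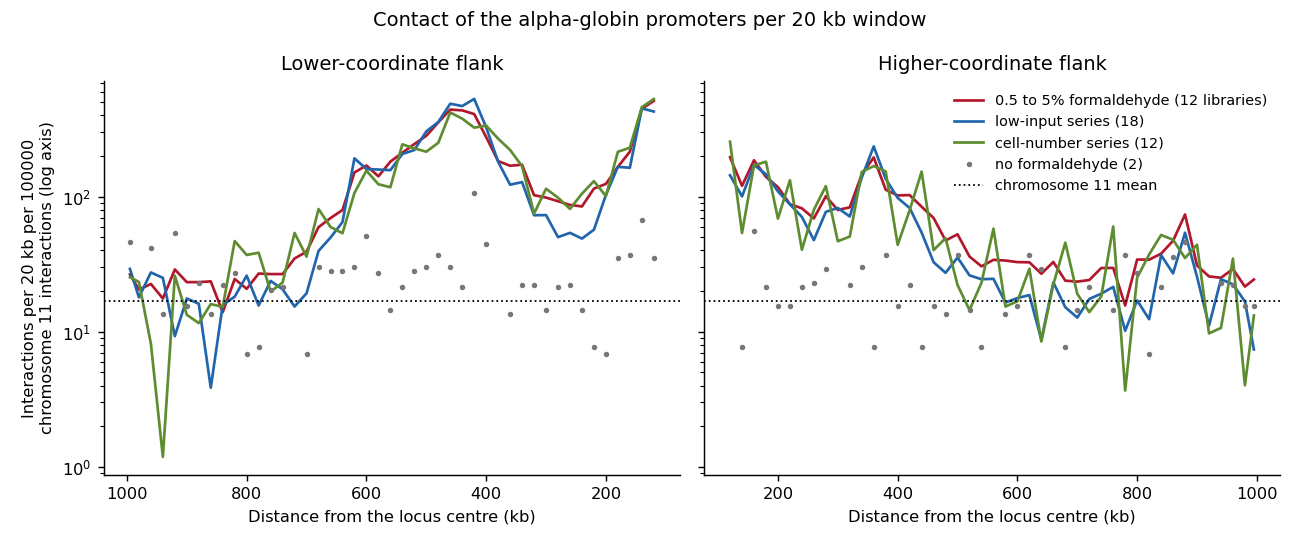
Interactions per 20 kb per 100000 chromosome 11 interactions, on a log axis, against distance from the locus centre in kb, for the lower flank (left, distance running from right to left) and the higher flank (right). Lines are means over the libraries of each experiment other than the unfixed. Dots are the mean of the 2 unfixed libraries (the 10 windows without an interaction in either are not drawn). The dotted line is the chromosome 11 mean of 16.8. On the lower flank the 3 lines rise to a second maximum between 410 and 470 kb, with 442, 488 and 420 interactions in the window at 450 to 470 kb.

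Taken in bands of 200 kb, the lower flank had its maximum in the second band, from 310 to 510 kb, in every group but that of 0.5% formaldehyde. There it held 247 to 348 interactions per 20 kb per 100000 in the means of the 16 groups other than the unfixed, which is 14.7 to 20.7 times the chromosome mean. At 0.5% formaldehyde the first band, from 110 to 310 kb, held 289 ± 27.0 (SD, n = 2) and the second 263 ± 15.3. At 5% the first held 133 ± 1.66 and the second 249.5 ± 3.58, so the first band moved more than the second between these concentrations. On the higher flank the second band held 73.8 to 133 in the same groups. In the unfixed libraries the second band held 32.7 ± 3.96 (SD, n = 2) on the lower and 20.8 ± 12.1 on the higher flank.

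From 710 kb to 1 Mb contact was 0.643 to 2.66 times the chromosome mean in the group means of both sides. The means ranged from 10.8 to 35.7 interactions per 20 kb per 100000 on the lower flank and from 19.0 to 44.7 on the higher flank. The highest mean of either flank was that of 0.5% formaldehyde, and the unfixed libraries gave 20.02 ± 1.80 (SD, n = 2) and 19.2 ± 5.95, within the range of the fixed groups.

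A power law of distance was fitted to the windows by Poisson regression with a level for each flank and a common exponent. The exponent was -0.84 ± 0.09 (SD, n = 12) in the fixed libraries of the formaldehyde series, -0.85 ± 0.10 (n = 18) in the low-input series and -0.95 ± 0.13 (n = 12) in the cell-number series. It was -0.18 and -0.10 in the unfixed libraries, so contact there hardly fell with distance. By group it was -0.94 ± 0.05 (SD, n = 2) at 0.5% formaldehyde and -0.80 ± 0.0014 at 5%. The exponent had no trend that passed the test with formaldehyde, at -0.045 per percent (exact two-sided permutation test, p = 0.592, adjusted p = 0.887). Without the unfixed concentration the trend was turned, at 0.041 per percent (exact permutation test, p = 0.0306, adjusted p = 0.183). It differed by 0.038 between protocols (exact permutation test, adjusted p = 0.887), by 0.031 per doubling of input and by 0.029 per doubling of cell number (permutation tests, adjusted p = 0.887 each). A linear regression of log2(count + 1), in place of the Poisson regression, turned the trends with input and cell number to -0.18 (adjusted p = 0.00288) and -0.19 (adjusted p = 0.0223) per doubling by permutation tests. Depth rose with input and cell number, and windows without an interaction numbered 4 to 47 of 90 in the low-input and 4 to 62 in the cell-number libraries. The part of empty windows in the turned trends was not tested.

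Each window was next set against 1 curve of distance for both flanks, fitted per library, as log2 of observed over expected interactions with 0.5 added to each. This is a description, with no test. On the lower flank 14 windows lay above the curve in the mean of each of the 3 experiments and 27 below it in each. On the higher flank 1 lay above and 41 below. In 8 windows, all on the lower flank between 390 and 550 kb, contact was more than 2-fold above the curve in each experiment. With a separate curve for each flank 3 of these 8 remained, with contact counted per listed fragment and without the unfixed libraries all 8 did, and with the libraries of an experiment summed all 8 and 2 others were over 2-fold, while 18 lower and 2 higher windows lay above the curve in each.

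The highest of these windows lay side by side. The window at 450 to 470 kb had a mean log2 of 2.01, the window at 430 to 450 kb (chr11:31740000-31759999) 1.95 and that at 410 to 430 kb (chr11:31760000-31779999) 1.94, which is 4.02, 3.85 and 3.83-fold over the curve. The windows at 470 to 490 kb (chr11:31700000-31719999) and 390 to 410 kb (chr11:31780000-31799999) followed at 1.57 and 1.43. The windows at 410 to 430 and 430 to 450 kb were above the curve in all 42 libraries other than the unfixed. That at 450 to 470 kb was above it in 41 of 42, the exception being a library of 10000 cells without an interaction there.

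Between 190 and 330 kb the lower flank lay below the curve. The 7 windows of this dip had mean log2 values from -0.75 at 290 to 310 kb to -1.38 at 250 to 270 kb. Beyond 690 kb the lower windows lay between -1.10 and -1.92, with the lowest values at 850 to 870 kb (-1.92), 930 to 950 kb (-1.86) and 830 to 850 kb (-1.82). With the libraries of each experiment summed, the windows at 290 to 310 and 250 to 270 kb gave -0.57 and -1.02. Those at 850 to 870, 930 to 950 and 830 to 850 kb gave -2.13, -2.24 and -1.84. How libraries without an interaction weigh on the means was not tested.

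On the higher flank the highest windows were those at 350 to 370 kb (0.41), 370 to 390 kb (0.06), 330 to 350 kb (-0.02), 870 to 890 kb (-0.39) and 150 to 170 kb (-0.41). The window at 350 to 370 kb lay above the curve in 11 of 14, 16 of 18 and 7 of 12 libraries, and the 3 libraries of 10000 cells had no interaction in it. The lowest were those at 770 to 790 kb (-2.17), 570 to 590 kb (-2.04) and 630 to 650 kb (-2.04), which exceeded the curve in 2 or 3 of 44 libraries each. Going outward, the largest fall between neighbouring sets of 5 windows was at 450 kb on the higher flank in all 3 experiments. On the lower flank it was at 690 kb in the formaldehyde series, 630 kb in the low-input series and 550 kb in the cell-number series. In single libraries the largest fall lay at or next to these windows in 9 of 14, 8 of 18 and 2 of 12 libraries on the higher flank and in 5 of 14, 12 of 18 and 2 of 12 on the lower flank.

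**Figure D3:**
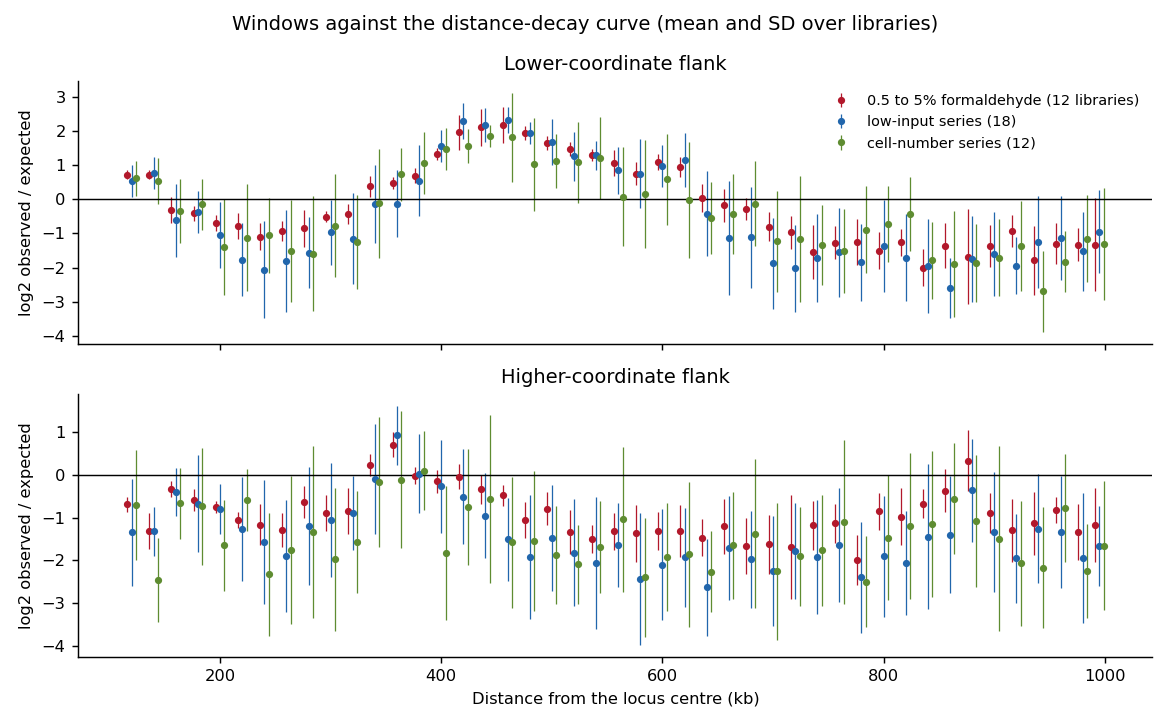
Log2 of observed over expected interactions per 20 kb window against distance from the locus centre in kb, on the lower (top) and higher (bottom) flank. Points are means and bars SD over the libraries of each experiment other than the unfixed, and 0 is the curve of distance. The lower flank has a dip between 190 and 330 kb. In the mean of the 3 experiments with the unfixed libraries included, which is not drawn, its maximum is 2.01 at 450 to 470 kb. In that mean the window at 350 to 370 kb is highest on the higher flank, at 0.41.

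The 12 neighbouring windows from 370 to 610 kb (chr11:31580000-31819999), all above the curve in each experiment, took 54.0% ± 6.37 (SD, n = 42) of the contact of the lower flank and 3.36% ± 0.481 of that of chromosome 11. Per kb this was 16.6 ± 2.38 times the chromosome mean. The 2 windows from 110 to 150 kb (chr11:32040000-32079999) took 14.8% ± 2.88 of the lower flank, at 27.7 ± 7.79 times the chromosome mean. By concentration the 12 windows held 36.0% ± 2.54 (SD, n = 2) of the lower flank without formaldehyde, 41.7% ± 1.42 at 0.5%, 48.7% ± 8.54 at 1%, 55.6% ± 1.44 at 2%, 56.8% ± 2.41 at 3%, 56.8% ± 0.995 at 4% and 56.5% ± 0.493 at 5%. They held 51.4% to 65.8% in the libraries of the low-input series and 39.3% to 58.4% in those of the cell-number series. The windows were joined into these runs after their values were seen.

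The level in the window at 450 to 470 kb shows the spread between libraries. Per 100000 chromosome 11 interactions it was 13.6 and 46.3 without formaldehyde, from 1 and 3 interactions, and 345 and 256 at 0.5%. It was 371 and 594 at 1%, 465 and 508 at 2%, 590 and 409 at 3%, 449 and 445 at 4%, and 415 and 455 at 5%. The libraries of 1% and 3% thus differed by more between replicates than the means of 2%, 4% and 5% differed from each other. In the cell-number series it was 636, 0 and 353 with 10000 cells, from 14, 0 and 6 interactions, and 351, 407 and 364 with 100000 cells, from 98, 144 and 108. Replicates of few cells therefore spread more widely than those of many.

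The mean profiles of log2 observed over expected interactions resembled each other between the experiments over the 90 windows. Pearson's r was 0.947 between the formaldehyde and the low-input series, 0.896 between the formaldehyde and the cell-number series and 0.876 between the low-input and the cell-number series, with Spearman's rho of 0.833, 0.799 and 0.744. The points are windows, which share the restriction map, so these are descriptions without a test. The unfixed libraries correlated with the fixed libraries of the formaldehyde series with r = 0.386. The unfixed profile rests on 127 and 142 flank interactions, with 23 to 31 of the 90 windows empty in a library. How far counting error lowered this r was not tested. The number of listed fragments in a window was hardly related to its log2 observed over expected, with r = 0.129, 0.0645 and 0.187 in the 3 experiments.

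Windows of the whole chromosome were then tested together for changes of their share with the quasi-likelihood test of edgeR, and the flank windows read from that fit. Over the 7 concentrations, 0 of the 90 flank windows were called at an adjusted p under 0.05, against 0.934% of the 1071 windows tested on the chromosome. Between protocols 0 of 24 tested flank windows were called, against 5% of 40, and with input 0 of 24, against 5% of 40. With cell number 0 of 33 were called, against 0% of 57. At an unadjusted p under 0.05 there were 8, 2, 2 and 2 flank windows, and DESeq2 called 0 in each comparison. In simulated counts the formaldehyde test recovered 10 of 100 changes of 2-fold and the cell-number test 0 of 6. The absence of calls therefore cannot show that windows were unchanged. The protocol and input tests held 19 windows of the lower flank and 5 of the higher, since the others had a mean count under 10.

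With the unfixed libraries left out, the test called 9 of the 90 flank windows, against 6.91% of the 1186 windows then tested. The share of 9 in 90 is near this background and is no result about the flanks. The values of these windows, chosen after they were seen, are a description. The windows at 410 to 430, 430 to 450 and 450 to 470 kb of the lower flank rose, by 0.21, 0.23 and 0.22 log2 per percent formaldehyde (SE 0.06 each, edgeR adjusted p = 0.00851, 0.00406 and 0.00665), as did that at 870 to 890 kb of the higher flank. The windows at 150 to 170 kb (-0.22, SE 0.06, edgeR adjusted p = 0.00572) and 270 to 290 kb of the lower flank and those at 130 to 150, 310 to 330 and 910 to 930 kb of the higher flank fell.

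The direction depends on the scaling. Without TMM factors, which set the typical window to no change, 66 of the 90 flank windows were called and all of them fell, against 44.7% of the 1186 windows called as falling on the chromosome, while the median of all windows was -0.25 per percent, against -0.02 with them. The windows at 410 to 430, 430 to 450 and 450 to 470 kb then had slopes of -0.02, -0.0016 and -0.01. They rose relative to the other windows of the chromosome, while their linear slopes as a share of its interactions were near 0. That share was nonetheless lower at 0.5% than at 1% and 5%. Per 100000 chromosome 11 interactions the 3 windows held means of 283, 265 and 300 at 0.5%. They held 474, 503 and 482 at 1%, and 428, 439 and 435 at 5%. With the 2 forms of library name as a term, over all 7 concentrations, 0 windows were called, as without the term over the same concentrations. This fit includes the unfixed libraries, so it cannot be set against the calls made without them, and it does not show what the term does to those calls. Without the term, the slopes over all 7 concentrations were 0.33, 0.43 and 0.41 for the windows at 410 to 430, 430 to 450 and 450 to 470 kb. That of the window at 150 to 170 kb was -0.08. With the term they were 0.53, 0.71 and 0.57 per percent (edgeR adjusted p = 0.943 each), and that of the window at 150 to 170 kb was 0.16 (edgeR adjusted p = 0.952). With the unfixed libraries left out and without the term for library names, DESeq2 called 4, those at 410 to 470 kb and at 150 to 170 kb. The share that DESeq2 called over all windows was not computed, so this number is no result about the flanks.

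As a share of the contact in both flanks, the window at 430 to 450 kb held 2.21% ± 0.094 (SD, n = 2) at 0.5% formaldehyde, 4.13% ± 0.957 at 1%, 5.33% ± 0.099 at 2%, 5.76% ± 0.861 at 3%, 5.98% ± 0.018 at 4% and 6.09% ± 0.485 at 5%. The window at 150 to 170 kb held 3.32% ± 0.681, 2.66% ± 1.13, 1.90% ± 0.289, 1.58% ± 0.254, 1.59% ± 0.099 and 1.72% ± 0.023. Both changed mainly between 0.5% and 2%, within the libraries whose names have 1 form. Per 100000 chromosome 11 interactions the window at 430 to 450 kb held 265, 503, 529, 435, 444 and 439 at these concentrations, so its level was highest at 2%.

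**Figure D4:**
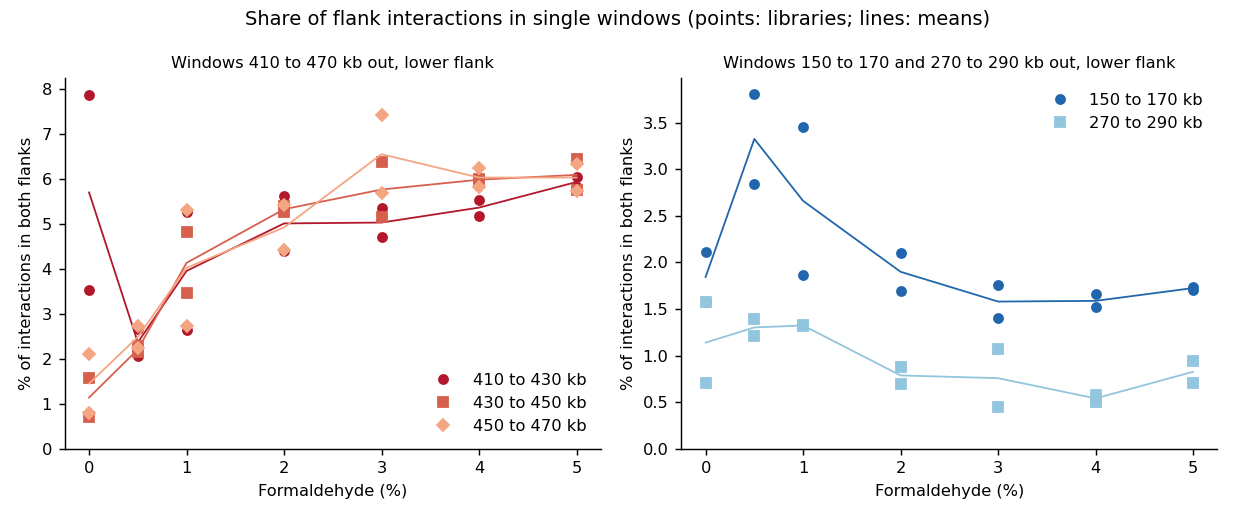
Percent of the interactions of both flanks that fell in single windows of the lower flank, against formaldehyde in percent. Points are libraries and lines join the means of 2 technical replicates. The windows between 410 and 470 kb (left) go from 2.21% to 2.49% at 0.5% to between 5.93% and 6.09% at 5%, and the window at 150 to 170 kb (right) from 3.32% to 1.72%; the unfixed libraries rest on 1 to 10 interactions per window.

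With the libraries summed, contact was spread over many fragments. The 5 fragments of the lower flank with the most interactions over all libraries held 2.12% of its contact and the 5 of the higher flank 2.70%. The largest share of flank contact in 1 fragment was 0.311% in the formaldehyde table, 0.502% in the low-input table and 0.803% in the cell-number table. In single libraries it reached 7.93%, 6.25% and 5.78% in the 3 libraries of 10000 cells, from 13, 11 and 10 interactions. The lower fragment with the highest mean over the experiments was chr11:31735278-31736367, of 1090 bp and 454 kb from the centre, in the window at 450 to 470 kb. It held 21.1, 43.1 and 19.5 interactions per 100000 in the formaldehyde, low-input and cell-number series, against a median of 1.35 for a lower fragment. The third, chr11:31760038-31760960, lies 430 kb out and held 11.7, 37.2 and 25.3. The next, chr11:32075740-32076600 and chr11:32071389-32072628, lie at the inner edge of the flank.

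Some leading fragments rested on single libraries. The second of the lower flank, chr11:32059882-32060044, held 72.3 interactions per 100000 in the cell-number series against 3.08 and 3.83 in the others, and 13 of its interactions came from 1 library of 10000 cells. On the higher flank chr11:32631382-32631485 and chr11:32477711-32478173 held 11 and 10 interactions in another library of 10000 cells and 0 in the other 2 of that group. The higher fragment with the highest mean was chr11:32538050-32538627, of 578 bp and 348 kb from the centre, which held 5.08, 12.4 and 28.3 per 100000 in the formaldehyde, low-input and cell-number series, where its interactions came from 4 of the 12 libraries. The fourth, chr11:32541391-32542161, lies 352 kb out and held 11.7, 13.5 and 14.6, and the fifth, chr11:32354549-32355949, lies 165 kb out and held 13.9, 12.3 and 12.5. Longer fragments held more contact, with Pearson's r of 0.314 over 1938 lower fragments and 0.203 over 1868 higher ones, given as descriptions.

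The flanks of the α-globin promoters were compared with the same distances around the other viewpoints of the same libraries, the β-globin promoters and the promoter of Slc25a37, which encodes the mitochondrial iron importer mitoferrin-1. For this comparison each flank was measured from the median position of the viewpoint's contacts on its own chromosome. The share of contact in the flanks was higher for α-globin than for β-globin, by 1.66 ± 1.10 percentage points (SD, n = 7 concentrations) in the formaldehyde series, in 7 of 7 (exact two-sided sign-flip permutation test, p = 0.0156, which is the smallest this design allows, adjusted p = 0.0179 over 8 tests). In the low-input series the difference was 0.884 ± 0.803 (n = 18), in 16 of 18 libraries (permutation test, adjusted p = 0.00056). Against Slc25a37 it was 1.47 ± 0.875 in the formaldehyde series, in 6 of 7 concentrations (exact permutation test, adjusted p = 0.0313), and 0.738 ± 0.840 in the low-input series, in 16 of 18 libraries (permutation test, adjusted p = 0.00482). With each fragment counted once, the difference from Slc25a37 in the formaldehyde series was turned, at -0.818 percentage points (exact permutation test, p = 0.0156).

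Contact fell less steeply over the α-globin flanks than over those of the other viewpoints. In the low-input series the exponent of the α-globin flanks was -0.81, that of the β-globin flanks -1.47 and that of the Slc25a37 flanks -1.03. The difference from β-globin was 0.66 ± 0.16 (SD, n = 18), in 18 of 18 libraries, and from Slc25a37 0.22 ± 0.17, in 17 of 18 (permutation tests, adjusted p = 0.00016 and 0.00056). In the formaldehyde series the differences were 0.44 ± 0.17 (n = 7) and 0.23 ± 0.18, each in 7 of 7 concentrations (exact permutation tests, adjusted p = 0.0179 each). The exponent turned on the inner windows: with flanks that begin at 200 kb the difference from Slc25a37 was -0.0012 in the formaldehyde series (exact permutation test, p = 1) and -0.18 in the low-input series (permutation test, p = 0.0349), and that from β-globin in the formaldehyde series was 0.12 (exact permutation test, p = 0.109).

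The side with more contact differed between viewpoints, given here as values without a test. In the low-input series the log2 ratio of the higher over the lower flank was -1.19 ± 0.18 (SD, n = 18) at α-globin, -0.38 ± 0.27 at β-globin and 1.36 ± 0.35 at Slc25a37. In the fixed libraries of the formaldehyde series it was -1.03 ± 0.12 (n = 12), -0.16 ± 0.13 and 1.13 ± 0.24. The ranges over these libraries were all below 0 at α-globin, on both sides of 0 at β-globin and all above 0 at Slc25a37.

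**Figure D5:**
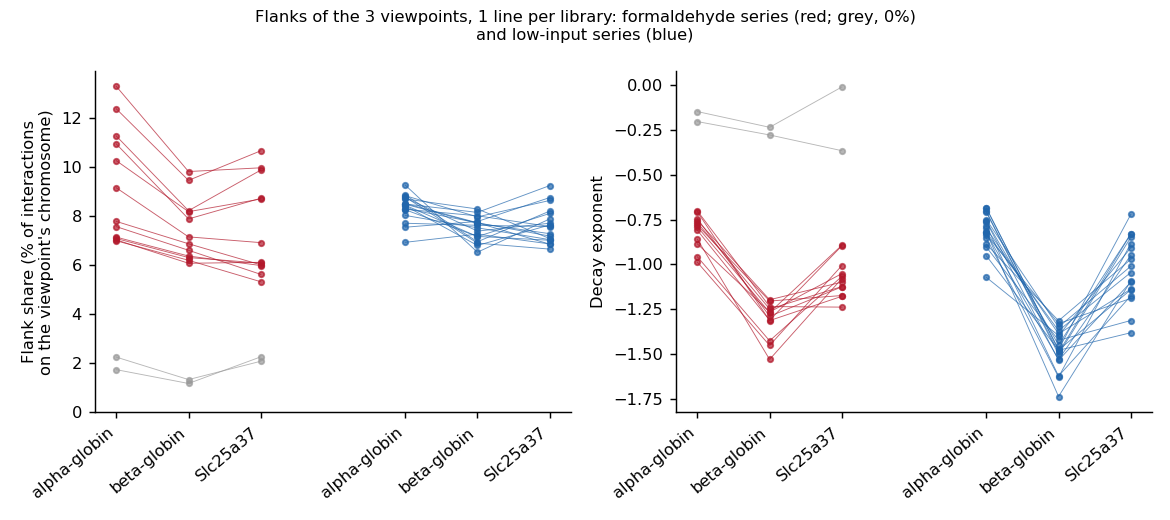
Flank share in percent of the interactions on the viewpoint's chromosome (left) and exponent of the fall with distance (right) for the α-globin, β-globin and Slc25a37 viewpoints. Each line joins the values of 1 library, red for fixed and grey for unfixed libraries of the formaldehyde series and blue for the low-input series. In the low-input series the mean α-globin exponent lies nearest to 0, at -0.81 against -1.47 and -1.03. In 1 unfixed library the Slc25a37 exponent lies nearer to 0, at -0.011.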

How the data were processed

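Unique interactions of the α-globin promoters were measured in 44 libraries of erythroid cells. The authors trimmed and mapped reads (Trim Galore and Bowtie, mm9, per the labels; versions are not given in the sources used here), removed PCR duplicates by read ends, in low-input libraries also ends differing by 1 or 2 positions, and counted interactions per DpnII fragment. The deposited values are raw counts, the 2 promoters pooled. How duplicates were removed sets what counts as unique, and reads were not examined here. Groups were taken from the labels, and 0 columns were left out.

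Counts were summed in windows with pandas 2.3.3 and NumPy 2.4.6 in Python 3.11.15, tested with SciPy 1.17.1 and plotted with matplotlib 3.10.9. Shares, ratios and exponents were tested with exact two-sided permutation tests, or 100000 permutations, with Benjamini-Hochberg adjustment over 12 tests, and viewpoints over 8. Technical replicates of a concentration were averaged, or summed for windows. Windows were tested with edgeR 4.0.16 (R 4.3.3, TMM, mean count of at least 10, adjusted p under 0.05), with DESeq2 1.42.0 as the alternative. Tests were tried on simulated counts, the window tests at these depths. Of 4-fold changes over the range, the window tests recovered 55 of 100 for formaldehyde, 4 of 4 for protocol, 4 of 4 for input and 3 of 5 for cell number. Of 2-fold changes they recovered 10 of 100, 4 of 4, 3 of 4 and 0 of 6. Named were the 5 highest and 3 lowest windows of each flank and the 5 leading fragments, with exceptions stated. Members, windows and tests were chosen with earlier results of these data known. Other denominators, edges, window sizes, regressions, scalings and filters, and each library left out, were tried as alternatives.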

Additional observations from a re-analysis of the deposited data

How the results depend on the processing

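Of the settings that left out no library, 117 kept the direction and the side of the threshold, 24 turned a sign, 5 moved a count of windows by over 1.5 times, 2 passed newly and 1 lost its call. Of those that left out 1 library, 363 kept both and 13 turned a sign. The 12 trends of flank share, ratio and exponent did not pass in the main analysis, so a turned sign among them is no change of a call, except under the linear regression of log2(count + 1) for input and cell number, where the turned trend passed. The causes were not tested.

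The trend of the flank share with formaldehyde, -0.134, was 0.663 as a share of all interactions, 1.37 with distinct fragments, 2.98 for 0 to 2 percent alone and 1.47 with the form of the library names as a term. All of these include the unfixed libraries. The protocol difference of the flank share was -0.129 at 50 ng alone. The trend of the flank share with cell number was 0.290 within 1 Mb and 0.322 with distinct fragments, and that with input passed within 1 Mb, at 0.690. The flank ratio by protocol was 0.016 with distinct fragments, 0.065 with flanks from 200 kb and 0.16 at 50 ng alone, by input -0.031 for Tag-Capture-C alone, and by cell number 0.079 with distinct fragments. The exponent by formaldehyde was 0.041 without 0 percent and 0.051 for 0.5 to 2 percent alone, a setting chosen after the data were seen. By protocol it was -0.031 with flanks from 200 kb and -0.11 at 200 ng alone, and by input -0.0029 with flanks from 200 kb, -0.18 by linear regression and -0.026 for Tag-Capture-C alone. By cell number it was 0.066 with distinct fragments, which passed (permutation test, adjusted p = 0.0394), -0.19 by linear regression and -0.081 on the higher flank alone. Between viewpoints, α-globin minus Slc25a37 was -0.818 for the share with distinct fragments, and -0.0012 (formaldehyde) and -0.18 (low-input) for the exponent with flanks from 200 kb, where α-globin minus β-globin in the formaldehyde series was 0.12 and no longer passed. Leaving out 0 percent, or placing the α-globin flanks as in the other comparisons, both chosen after the data were seen, changed no call between viewpoints.

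Windows over 2-fold above the curve numbered 8, and 3 with a curve per flank. Flank windows called by formaldehyde numbered 0, 54 without TMM factors (all fell, against 41.7% of all 1071 windows, with a median of all windows of -0.28 per percent against 0.0069), 6 with the 14 libraries separate and 9 without 0 percent (against 6.91% of 1186 windows). With the 14 libraries separate, the share called over all windows was not computed, so the 6 are no result about the flanks. The setting without fragments of over 1 percent of flank interactions changed nothing, as no fragment held so much of a table, and was not run.

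With 1 library left out at a time, the flank share moved from -0.204 to -0.0643 by formaldehyde, -0.0713 to 0.307 by protocol, 0.0932 to 0.328 by input and -0.258 to 0.024 by cell number. The flank ratio moved from -0.14 to -0.067 by formaldehyde, -0.055 to 0.052 by protocol, -0.0048 to 0.065 by input and -0.072 to 0.022 by cell number. The exponent moved from -0.050 to -0.040 by formaldehyde, 0.015 to 0.061 by protocol, 0.012 to 0.043 by input and 0.013 to 0.041 by cell number. Calls of flank windows were 0 to 0 in each of the 4 tests, and no difference between viewpoints lost its call.

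Libraries with the same replicate number did not deviate together. The median correlation of their deviations was 0.0015 over 42 pairs in the formaldehyde series, 2 of them over 0.1, and 0.0019 over 45 pairs in the low-input series, 15 of them over 0.1, and 8 of 14 and 10 of 18 libraries correlated best with their own number. With a replicate block 4 flank windows were called by formaldehyde over the 14 libraries, against 6 without it. The share called over all windows was not computed for these 2 fits, which count technical replicates separately, so neither number is a result about the flanks. The replicate block left the flank share at -0.134 by formaldehyde, 0.117 by protocol and 0.227 by input and changed no call of the other trends. In the cell-number series, columns with the same letter showed no common deviation in the median (-0.021 over 11 pairs, 2 of them over 0.1), and the letter as a term, tried after the data were seen, changed no call.

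Depth limits single windows. In the low-input series a median of 23 of 90 windows, and in the cell-number series 33, had no interaction in a library, against 0 in the fixed libraries of the formaldehyde series, and the protocol, input and cell-number tests reached 24, 24 and 33 of the 90 windows.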
